A study of Sparassis latifolia with 12 samples.

Results

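After 16 days in the cold, the fruiting bodies of Sparassis latifolia (cauliflower mushroom) were compared with fresh ones, 3 libraries against 3, of 12 RNA-seq libraries in all. Group C held fruiting bodies stored for 16 days and group A those of day 0, which were frozen without storage. Both came from the strain Minxiu No.1 and had been packed in oriented polypropylene (OPP) film, and storage was at 4 ℃, so strain and film did not differ between the groups. The other libraries, 3 of day 8 (group B) and 3 of day 24 (group D), entered the fit and are used only to place day 16 among its neighbours. RNA was taken from fruiting bodies, of which the sampled tissue is not stated further, and ribosomal RNA was removed before library preparation. The deposited values are FPKM, that is, read fragments scaled to the length of the transcript and to the mapped fragments of each library, for 13103 mRNAs and 1003 long non-coding RNAs (lncRNAs).

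A harvested mushroom lives on without a supply from its mycelium. It respires, loses water and draws on its own carbohydrate and protein, and inside a film the oxygen around it can fall. Pyruvate from glycolysis can then be turned into ethanol through pyruvate decarboxylase and alcohol dehydrogenase. Ergosterol is the main sterol of fungal membranes and is made by a chain of enzymes that needs oxygen at several steps. lncRNAs are transcripts with little coding potential, and some of those known in other organisms act on genes beside them or far from them.

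Each library was brought to a common scale by its own factor, between 0.983 and 1.0002 in these 6 libraries (scaled FPKM). The test was limma on log2(scaled FPKM + 1). It took in 10962 mRNAs and 1002 lncRNAs, those that reached 1 FPKM in 3 or more of the 12 libraries. A transcript was called where its Benjamini-Hochberg adjusted p over its class was under 0.05 and its level moved by 1 or more on the log2 scale. Log2 fold changes are day 16 over day 0 on the log2(scaled FPKM + 1) scale, which understates the change of transcripts with low FPKM. Nothing in the methods ties the 3 replicates of a day to different packages or bodies, so p-values cover only the spread among these samples, and this spread may be technical. In bulk RNA of this kind, fewer cells of a type and less RNA per cell cannot be told apart. The sequencing summary of the study also gives lower read error rates and lower mapped shares for all group C libraries than for all group A libraries, so the day and these differences in read quality and mapping cannot be told apart.

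By day 16, 3436 of the 10962 mRNAs tested (31.3%) were differentially expressed. Of these, 1602 rose (14.6%) and 1834 fell (16.7%). Among the lncRNAs, 471 of 1002 (47%) were called, 168 that rose (16.8%) and 303 that fell (30.2%). Risen transcripts thus made 46.6% of the called mRNAs and 35.7% of the called lncRNAs. The split of the lncRNAs depended on the scaling. With quantile normalization 206 rose and 166 fell, which put the risen ones at 55.4% of the calls and the median log2 change of all lncRNAs at 0.00. This normalization gives all libraries the same distribution of levels within a class, so a shift of the whole class is removed in advance. The mRNA split turned as well, to 1761 risen and 1652 fallen with quantile normalization and to 1532 risen and 1476 fallen with a filter on the mean FPKM of at least 5. It moved the other way with factors taken from the lncRNAs, to 1340 risen and 2153 fallen (38.4% risen). In the fit reported here, the median log2 change of all tested transcripts was -0.02 for mRNAs and -0.33 for lncRNAs. In 3306 of the called mRNAs and 455 of the called lncRNAs the 3 libraries of day 16 all lay on one side of the 3 of day 0, a separation that 55.7% of all tested mRNAs and 61.9% of all tested lncRNAs showed.

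At 4 and 8 times, falls outnumbered rises in both classes. Among mRNAs, 358 rose and 508 fell by at least 4 times (a log2 change of 2), 85 rose and 140 fell by at least 8 times, and 17 rose and 13 fell by at least 32 times. The lncRNAs had 49 risen and 216 fallen at 4 times, 13 and 125 at 8 times, and 1 and 20 at 32 times. From the 5th to the 95th percentile, log2 changes spanned -1.96 to 1.75 in mRNAs and -3.90 to 1.998 in lncRNAs. Of the 303 lncRNAs that fell, 92 were listed at 0 in all 3 libraries of day 16, which leaves 211 others. Without transcripts listed at 0 in all day 16 libraries, the median log2 change was -0.15 over 904 lncRNAs and -0.01 over 10815 mRNAs.

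**Figure D1:**
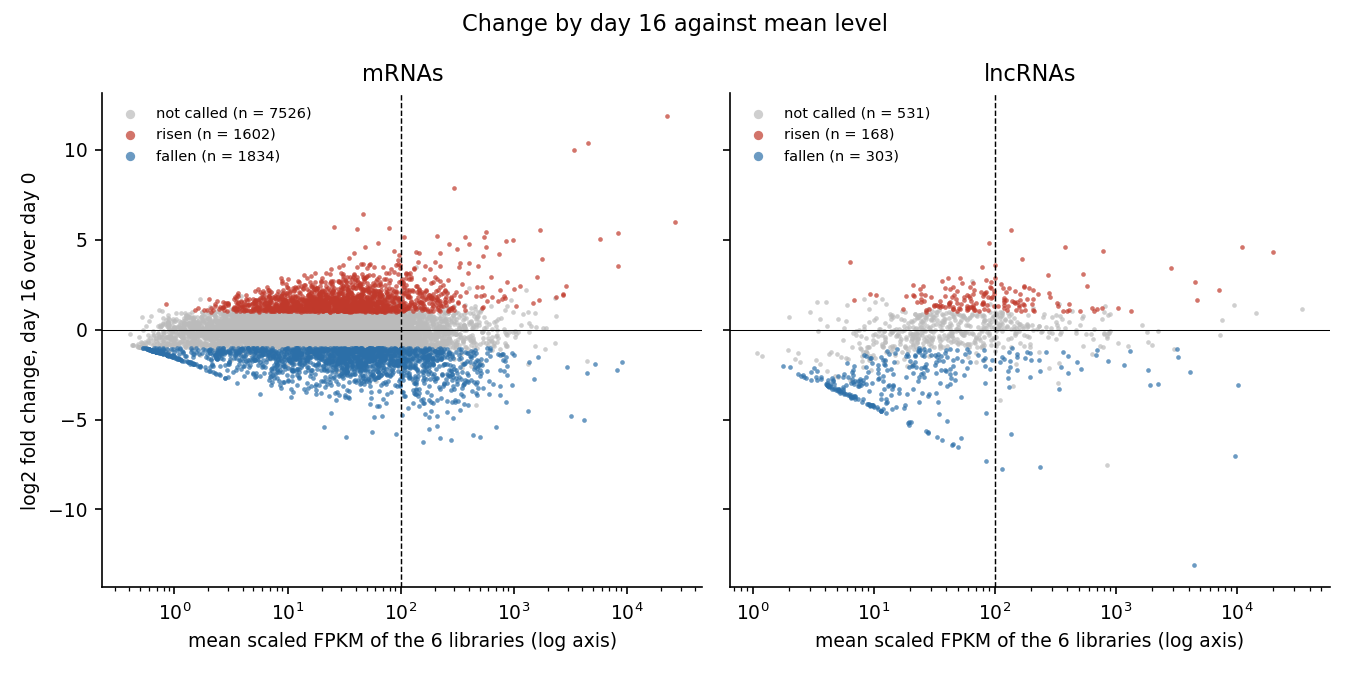
Each point is a transcript, with its mean scaled FPKM over the 6 libraries on a log axis and its log2 fold change, day 16 over day 0, for mRNAs on the left and lncRNAs on the right. Red points rose (1602 mRNAs, 168 lncRNAs), blue points fell (1834 and 303), the dashed line marks a mean of 100 FPKM, and the straight lower edges are transcripts listed at 0 in all day 16 libraries.

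The 2 largest rises among mRNAs, taken by log2 change with no overlap of libraries and a mean of at least 10 FPKM, were EVM0012259 and EVM0007363. The deposited files give no product for either of them. EVM0012259 had 44277, 56708 and 34843 scaled FPKM on day 16, against 0, 1634 and 0 on day 0 (adjusted p = 0.00624 in limma). No fold is given, because it was listed at 0 in 2 of the 3 day 0 libraries. The groups lay far apart, but in day 0 replicate 2 it was among the 83 mRNAs over 1000 FPKM of that library. EVM0007363 had 10444, 5523 and 11186 scaled FPKM on day 16, against 8.999, 11.8 and 1.06 on day 0. Its log2 fold change was 10.40 ± 0.73 (SE, limma adjusted p = 3.41e-06), and here all 3 day 0 libraries were near the bottom of the range. The 10th largest rise by the same rule was 5.52 on the log2 scale.

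The 2 largest falls were in mRNAs far above the median level of 23.3 FPKM in fresh fruiting bodies. On this log2 scale, falls of such size are possible only from a high day 0 level. EVM0000097 had 2.098, 2.67 and 4.83 scaled FPKM on day 16, against 358, 208 and 377 on day 0, a log2 fold change of -6.24 ± 0.45 (SE, limma adjusted p = 3.77e-06). EVM0001878 had 5.13, 6.47 and 8.77 scaled FPKM on day 16, against 494, 401 and 766 on day 0, a change of -6.13 ± 0.55 (SE, limma adjusted p = 1.14e-05). In both, every day 16 library was under 10 FPKM and every day 0 library at 208 or more. Neither has a product name in the sources used here. The 10th largest fall was -5.43 on the log2 scale.

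By absolute level, the largest gain was that of EVM0006046. It had 57431, 61273 and 39464 scaled FPKM on day 16, against 1038, 1346 and 382 on day 0 (log2 fold change 5.99 ± 0.70 SE, limma adjusted p = 5.95e-05). This single mRNA held on average 6.65% of all mRNA FPKM on day 16, against 0.115% on day 0. EVM0012259 came next in gain and held 5.71% on day 16, against 0.0664% on day 0. Both were far lower on day 24 than on day 16. EVM0006046 had 1044, 666 and 911 scaled FPKM then (day 24 over day 16, log2 fold change -5.91, limma adjusted p = 0.000114), and EVM0012259 had 1070, 0 and 1053 (limma adjusted p = 0.0397). On day 8 EVM0006046 had 20444, 41469 and 41166 scaled FPKM, and EVM0012259 had 21628, 53641 and 42338. Their high levels thus fell on the days with the lower read error rates (8 and 16), and day and read quality cannot be told apart.

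The largest losses by level were less firm. EVM0001773 had 2470, 2717 and 2575 scaled FPKM on day 16, against 22525, 12151 and 6850 on day 0 (log2 fold change -2.25 ± 0.80 SE, limma adjusted p = 0.0360). EVM0001610 had 3774, 4334 and 3070 scaled FPKM on day 16, against 7541, 21840 and 13666 on day 0 (-1.83 ± 0.63 SE, limma adjusted p = 0.0315). In both the groups did not overlap, but the day 0 libraries were widely spread. The call of EVM0001773 was lost without day 0 replicate 1 (adjusted p = 0.108) and without any one day 16 library (0.0782 to 0.0969). The call of EVM0001610 was lost without day 0 replicate 2 (0.0540), without day 0 replicate 3 (0.0600) and without any one day 16 library (0.0567 to 0.0952). EVM0001773 stood at 12760, 13324 and 9820 scaled FPKM on day 24, and its difference between day 24 and day 16 did not pass the test (limma adjusted p = 0.0546).

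Among lncRNAs, the 2 largest rises were XLOC_014041 and XLOC_014038. XLOC_014041 had 279, 266 and 266 scaled FPKM on day 16, against 3.54, 5.31 and 6.21 on day 0, a log2 fold change of 5.52 ± 0.60 (SE, limma adjusted p = 5.70e-05). XLOC_014038 had 195, 140 and 189 scaled FPKM on day 16, against 2.61, 4.34 and 10.7 on day 0 (4.84 ± 0.87 SE, limma adjusted p = 0.00105). The libraries of day 16 lay close together in both, and the groups were well apart. The 10th largest rise among lncRNAs was 3.41, and the 10th largest fall was -6.05.

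The largest fall was that of XLOC_005632, which was listed at 0 in all 3 libraries of day 16, against 11635, 8345 and 6793 scaled FPKM on day 0. It was also at 0 in all 3 libraries of day 8, and on day 24 it was listed at 12825, 8420 and 8668. XLOC_002676 was the next, listed at 0 in all day 16 libraries, against 142, 191 and 353 scaled FPKM on day 0. It too was at 0 in all day 8 libraries, and it had 12.3, 1.72 and 229 scaled FPKM on day 24. Both passed the test (limma adjusted p = 5.39e-13 for XLOC_005632 and 0.000331 for XLOC_002676). No fold is given for them, since a listed 0 in a table without counts can be a failed estimate. Both lncRNAs were at 0 on the days with the lower read error rates (8 and 16), so day and read quality cannot be told apart here.

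In level, XLOC_013075 and XLOC_014006 gained most among lncRNAs. XLOC_013075 had 42290, 36168 and 34926 scaled FPKM on day 16, against 3504, 2920 and 686 on day 0 (log2 fold change 4.30 ± 0.61 SE, limma adjusted p = 0.000302), and its part of all lncRNA FPKM was 12.7% on day 16, against 0.928% on day 0. XLOC_014006 had 22869, 23906 and 16446 scaled FPKM on day 16, against 1318, 1393 and 351 on day 0 (4.59 ± 0.51 SE, limma adjusted p = 6.19e-05), or 7.15% of lncRNA FPKM against 0.410%. Day 0 replicate 3 was the lowest library for both. The lncRNAs that lost most level were XLOC_002341 and XLOC_006274. XLOC_002341 had 712, 646 and 1.58 scaled FPKM on day 16, against 35330, 17420 and 4517 on day 0 (-7.05 ± 1.78 SE, limma adjusted p = 0.00626), and its size depended on the third day 16 library, without which the log2 fold change was -4.37. XLOC_006274 had 2074, 1954 and 1453 scaled FPKM on day 16, against 33588, 6852 and 15732 on day 0 (-3.09 ± 0.53 SE, limma adjusted p = 0.000772). The lncRNAs of this study were kept from transcript classes that include ones overlapping or opposite to annotated genes, and no source used here says that strand entered the estimates, so they may share reads with mRNAs.

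**Figure D2:**
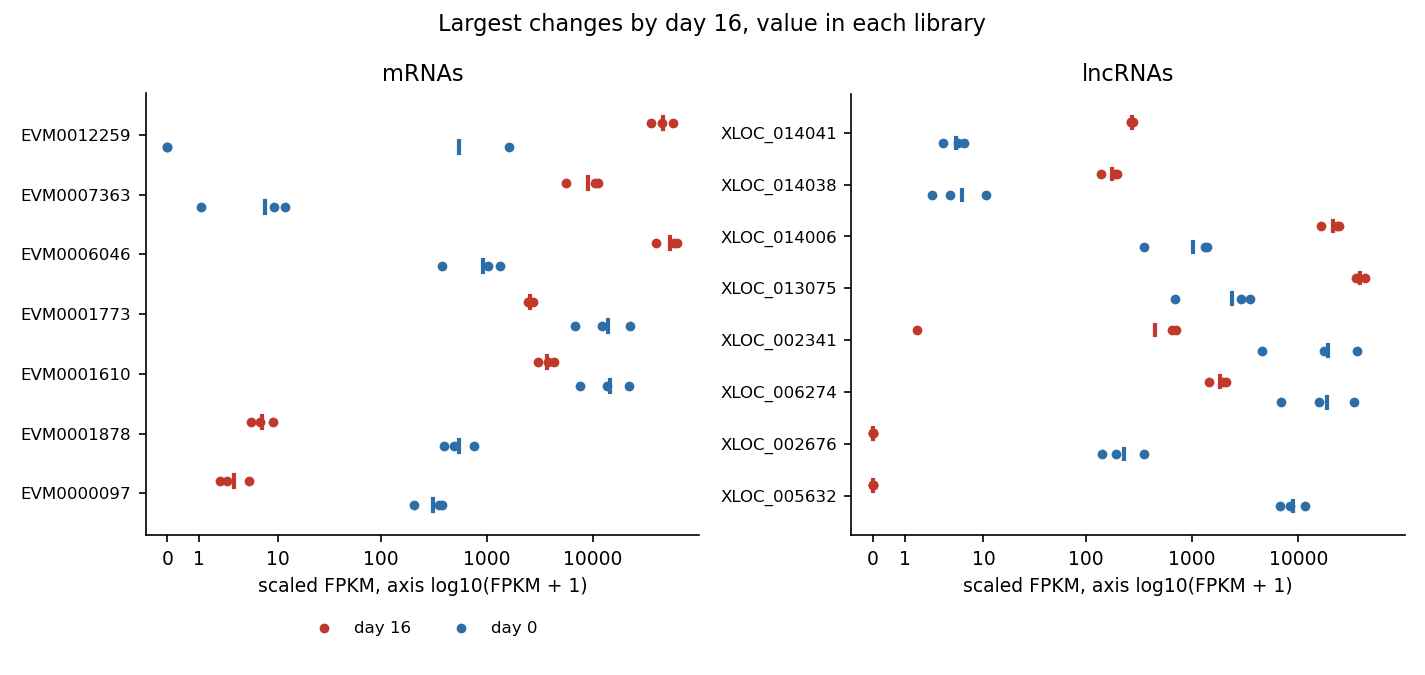
Scaled FPKM of the transcripts with the largest changes in each library on a log10(FPKM + 1) axis, with mRNAs on the left and lncRNAs on the right, red points for day 16, blue points for day 0 and a tick at each mean of 3. XLOC_005632 and XLOC_002676 sit at 0 in all 3 day 16 libraries, EVM0012259 sits at 0 in 2 of 3 day 0 libraries, and in every transcript shown the colours do not overlap.

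Among abundant mRNAs more fell than rose. Of the 1492 mRNAs with a mean of at least 100 scaled FPKM over the 6 libraries, 662 (44.4%) were called, 238 risen and 424 fallen, and their median log2 change was -0.28. Below that mean, 2774 of 9470 (29.3%) were called, 1364 risen and 1410 fallen, with a median of 0.01. Risen ones thus made 36.0% of the calls among abundant mRNAs. This split depended on the scaling, for with quantile normalization 311 rose and 343 fell (47.6%) and their median change was 0.00. By its design that normalization takes out differences in the distribution of levels between libraries. Within the abundant mRNAs, the 1439 of 100 to under 1000 FPKM had 219 risen and 412 fallen, while the 53 of 1000 or more had 19 risen and 12 fallen, with a median change of 0.28.

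Among abundant lncRNAs more rose than fell. Of 254 lncRNAs with a mean of at least 100 FPKM, 112 (44.1%) were called, 67 risen and 45 fallen, with a median log2 change of 0.18. Of the 748 below that mean, 359 (48.0%) were called, 101 risen and 258 fallen, with a median of -0.59. With factors taken from the lncRNAs, 55 abundant lncRNAs rose and 55 fell, so the excess of risen ones was not seen under that scaling. These factors moved the median change of all mRNAs to -0.15 and that of all lncRNAs to -0.46. Of the 176 lncRNAs under 10 FPKM, 3 rose (XLOC_000109, XLOC_005403 and XLOC_013964) and 109 fell, and 73 were listed at 0 in all day 16 libraries. Of the 32 lncRNAs of 1000 FPKM or more, 8 rose and 11 fell, with 13 not called.

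**Figure D3:**
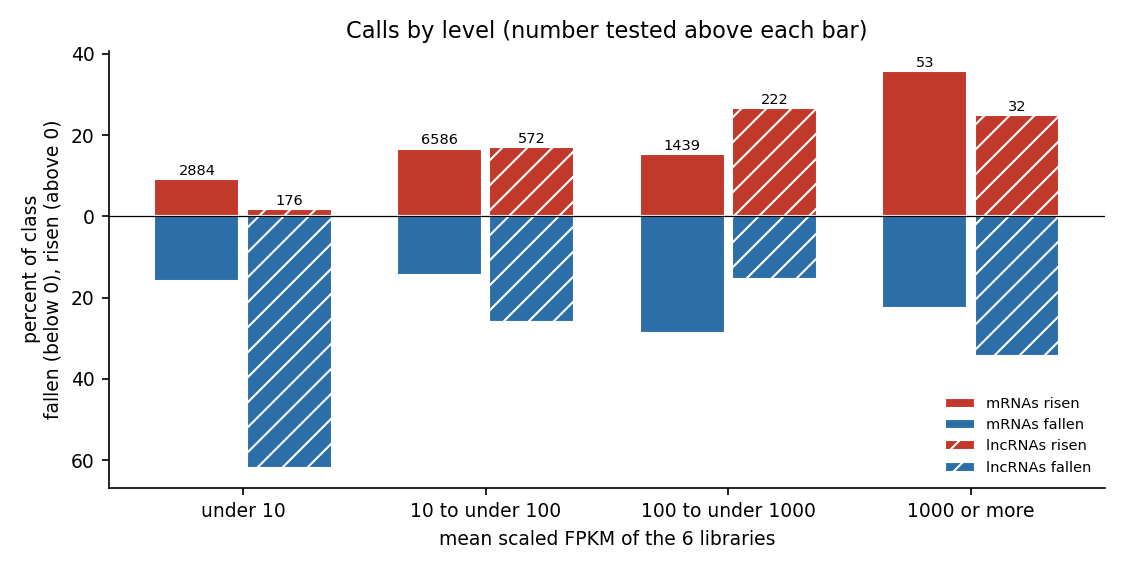
Percent of the transcripts tested that rose (red, above 0) or fell (blue, below 0) by day 16 in 4 classes of mean scaled FPKM over the 6 libraries, plain bars for mRNAs and hatched bars for lncRNAs, with the number tested above each bar. Falls made 61.9% of the lncRNAs under 10 FPKM, rises made 26.6% of the lncRNAs of 100 to under 1000 FPKM, and falls made 28.6% of the mRNAs of that class.

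The risen mRNAs took over a large part of the transcriptome. The 1602 risen mRNAs held 42.6% ± 1.47 of all mRNA FPKM on day 16 and 6.97% ± 1.93 on day 0 (SD, n = 3 each), a gain of 35.6 percentage points. They held 40.9 to 43.5% in the libraries of day 16, against 5.71 to 9.19% in those of day 0. The 1834 fallen mRNAs held 8.94% ± 0.413 on day 16 and 39.3% ± 3.28 on day 0 (SD, n = 3 each). Tested mRNAs without a call kept 48.4% on day 16, against 53.6% on day 0. No test is given for these shares, since the mRNAs were called in the same libraries.

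The same was seen for lncRNAs. The 168 risen lncRNAs held 42.1% ± 2.85 of lncRNA FPKM on day 16 and 8.91% ± 1.46 on day 0, and the 303 fallen ones 5.18% ± 0.175 on day 16 and 40.3% ± 5.31 on day 0 (SD, n = 3 each). In the libraries of day 8, the same risen mRNAs held 31.9 to 38.5% and the same fallen ones 10.2 to 11.0%. On day 24 the risen mRNAs held 18.4 to 21.0% and the fallen ones 21.0 to 23.8%. For these lncRNAs the shares on day 24 were 17.3 to 22.1% (risen) and 28.6 to 31.3% (fallen). Days 8 and 16 also had the lower read error rates, so the course of these shares over the days cannot be told apart from read quality.

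**Figure D4:**
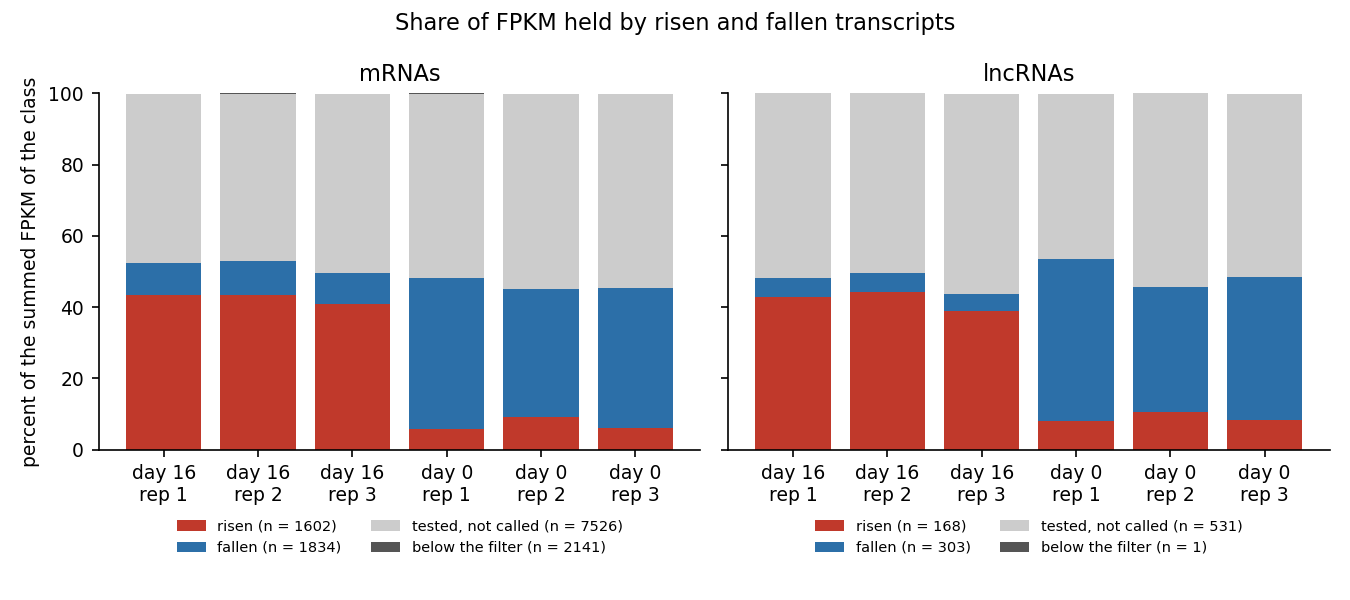
Stacked bars give the percent of summed FPKM of each class held in each library by transcripts that rose (red), fell (blue), were tested without a call (light grey) or stayed below the filter (dark grey), with the 3 libraries of day 16 left of the 3 of day 0. Red fills 40.9 to 43.5% of the mRNA bars of day 16, against 5.71 to 9.19% of those of day 0, and the lncRNA bars follow the same course.

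To read the shares in libraries that had no part in the calls, mRNAs were called again with 1 library of each day left out, for all 9 pairs, and the share was read in the pair left out. Risen mRNAs (1338 to 1793 per fit) held 25.3 to 45.9% in the day 16 library left out, against 3.97 to 14.0% in the day 0 library left out. The upper ends came from the fits without day 0 replicate 2 (42.1 to 45.9% on day 16, against 13.01 to 14.0% on day 0), and in the other 6 pairs the shares were 25.3 to 30.6%, against 3.97 to 5.55%. Fallen mRNAs (1379 to 1975) held 5.81 to 9.63% in the day 16 library, against 26.7 to 31.2% in the day 0 library. Risen lncRNAs (117 to 176) held 25.7 to 41.4%, against 3.68 to 10.7%, and fallen lncRNAs (175 to 267) held 3.62 to 6.37%, against 33.3 to 41.4%. The ranges of day 16 and day 0 did not overlap in any of these sets, though the 9 pairs share libraries and are not independent. The libraries left out also came from the same days, with the read quality of those days, and may be technical replicates. This reading thus cannot show whether the shares would hold in other fruiting bodies.

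A few mRNAs carried much of the gain, and many carried the loss. Of the gain of the risen mRNAs, 50% came from 6 mRNAs and 90% from 417, and the 10 with the largest gains carried 20.3 of the 35.6 points. Without these 10, the other 1592 risen mRNAs held 21.5% on day 16, against 6.20% on day 0. The share of the fallen mRNAs dropped by 30.4 points, spread over more of them, with 92 mRNAs making 50% of the loss and 684 making 90%. In lncRNAs both sides rested on few. Here 2 risen lncRNAs, XLOC_013075 and XLOC_014006, made 50% of a gain of 33.1 points. The share of the fallen lncRNAs dropped by 35.1 points, of which 50% came from 4, XLOC_002341, XLOC_006274, XLOC_005632 and XLOC_006639. The last of these had 1109, 975 and 1844 scaled FPKM on day 16, against 7545, 3924 and 9138 on day 0 (log2 fold change -2.36, limma adjusted p = 0.000890).

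FPKM was more concentrated in the top mRNAs and the top 10 lncRNAs on day 16. The 100 most abundant mRNAs of each library held 36.5, 38.9 and 34.1% of mRNA FPKM on day 16, against 24.2, 28.4 and 24.3% on day 0, a difference of 10.9 points. The groups did not overlap, with a two-sided exact permutation p of 0.1, the smallest that 3 against 3 can give. The 10 most abundant held 22.3, 23.5 and 18.5% on day 16, against 9.42, 12.01 and 9.59% on day 0. Counted from the top, 396, 340 and 440 mRNAs made 50% of mRNA FPKM on day 16, against 566, 509 and 645 on day 0. The 10 most abundant lncRNAs held 60.3, 59.0 and 63.6% of lncRNA FPKM on day 16, against 47.9, 47.7 and 39.9% on day 0, and 6, 7 and 6 lncRNAs made 50% of it on day 16, against 12, 12 and 16 on day 0. For the 100 most abundant lncRNAs the groups overlapped, at 84.5, 83.7 and 86.0% on day 16, against 85.1, 80.5 and 78.0% on day 0 (two-sided exact permutation p = 0.3).

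The top ranks were also held by other mRNAs. Of the 20 mRNAs with the highest mean on day 16, 4 (20%) were among the 20 highest on day 0, and of the 100 highest, 41 (41%) were. The 4 were EVM0001610 and EVM0001773, which fell, EVM0007049, which was not called, and EVM0009098, which rose. EVM0009098 had 10960, 15893 and 16833 scaled FPKM on day 16, against 407, 6013 and 746 on day 0 (log2 fold change 3.55, limma adjusted p = 0.00942), and here too day 0 replicate 2 stood above the other fresh libraries. The 100 highest mRNAs of day 16 had 47 that rose and 6 that fell, and the 100 highest of day 0 had 51 that fell and 7 that rose. Over all tested mRNAs 14.6% rose and 16.7% fell, and among those with a mean of at least 100 FPKM 16.0% and 28.4%. Ranking on day 16 favours mRNAs that rose, and ranking on day 0 those that fell. The top of the lncRNAs was more alike on both days, with 12 of 20 (60%) and 74 of 100 (74%) shared, though this class has fewer members to choose from. Ranking by level and calling used the same libraries, so these are counts with no test.

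Between the classes, a typical lncRNA stood slightly above a typical mRNA on both days. The median log2 level of tested lncRNAs exceeded that of tested mRNAs by 0.43, 0.44 and 0.27 on day 16, against 0.50, 0.50 and 0.55 on day 0, a difference of -0.14 (two-sided exact permutation p = 0.1). With a filter on the mean FPKM of at least 5, the difference was -0.03 (exact permutation p = 0.8), and with the mean of the log2 levels in place of the median it was -0.57 (exact permutation p = 0.1). The lncRNAs made 28.1, 25.7 and 28.0% of the summed FPKM of both classes on day 16, against 27.9, 21.0 and 21.9% on day 0 (difference 3.68 points, two-sided exact permutation p = 0.2), and here the groups overlapped.

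Fewer transcripts were listed above 0 on day 16 than on day 0. The number of mRNAs above 0 was 11024, 11061 and 10956 on day 16, against 12636, 12660 and 12886 on day 0, and that of lncRNAs was 862, 876 and 821 on day 16, against 991, 989 and 999 on day 0. Neither class overlapped between the days (exact permutation p = 0.1 for each). The mRNAs concerned were at low levels. Of 1335 mRNAs listed at 0 in all day 16 libraries and above 0 in all day 0 libraries, 143 passed the filter, 131 were called, and the median of their day 0 means was 0.439 FPKM. The opposite pattern was held by 2 mRNAs, EVM0011304 with 63.9, 38.1 and 52.6 scaled FPKM on day 16 and EVM0005962 with 1.74, 1.14 and 2.20, both listed at 0 in all day 0 libraries. The lncRNAs concerned reached higher. Of these, 92 were listed at 0 in all day 16 libraries and above 0 in all day 0 libraries, and each was called. The median of their day 0 means was 12.8 FPKM, and 63 had a mean of at least 10 FPKM. Only 1 lncRNA, XLOC_000109, was listed at 0 in all day 0 libraries and had 14.1, 15.0 and 9.51 scaled FPKM on day 16. Over all tested transcripts, 31.3% of mRNAs and 47% of lncRNAs were called. These sets were picked for their zeros on 1 day, so their calls follow from that choice. The clean reads listed in the sequencing summary of the study were on average more for the day 16 libraries than for the day 0 libraries, with overlapping ranges. Depth per transcript is unknown in these files, and its part in these zeros was not tested.

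mRNAs of ergosterol synthesis were lower on day 16. All 6 mRNAs that the study assigns to this pathway fell, with log2 changes of -3.12 to -1.33 and a median of -2.41, beside a median of -0.02 and falls in 16.7% over all tested mRNAs. The study chose this list, and the other lists below, on these samples, so its direction is not independent evidence. ERG13 (EVM0005394), hydroxymethylglutaryl-CoA synthase, acts early in the pathway, before the first sterol is formed. It had 39.6, 39.4 and 57.0 scaled FPKM on day 16, against 355, 70.9 and 440 on day 0 (log2 fold change -2.30 ± 0.54 SE, limma adjusted p = 0.00503). Day 0 replicate 2 lay near the day 16 libraries, but did not reach them.

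The other named enzymes act late, on the sterol itself, as is known from yeast. ERG25 (EVM0000111), methylsterol monooxygenase, takes part in removing methyl groups from the sterol ring. It had 59.7, 63.7 and 67.3 scaled FPKM on day 16, against 662, 231 and 614 on day 0 (-2.82 ± 0.33 SE, limma adjusted p = 6.34e-05). ERG3 (EVM0012147), the sterol 5(6)-desaturase, puts a double bond into the ring. It had 14.6, 19.7 and 14.9 scaled FPKM on day 16, against 177, 70.6 and 267 on day 0 (-3.12 ± 0.42 SE, limma adjusted p = 0.000143). ERG4 (EVM0003490), the sterol reductase of the last step, had 19.4, 17.2 and 19.6 scaled FPKM on day 16, against 195, 45.0 and 159 on day 0 (-2.52 ± 0.45 SE, limma adjusted p = 0.000941). The groups stayed apart in all of them.

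EVM0004880, which has no enzyme name in the sources used here, had 29.6, 30.5 and 48.4 scaled FPKM on day 16, against 263, 50.7 and 191 on day 0 (-1.93 ± 0.47 SE, limma adjusted p = 0.00586). EVM0000659, also without a name, had 60.6, 60.4 and 62.3 scaled FPKM on day 16, against 244, 74.2 and 205 on day 0 (-1.33 ± 0.35 SE, limma adjusted p = 0.00943). In all 6 mRNAs day 0 replicate 2 was the lowest of the fresh libraries. Without it the median log2 change of the list was -3.14, and all 6 were still called.

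The 5 mRNAs of the energy and fermentation list were higher on day 16. All 5 rose, by 1.83 to 5.52 on the log2 scale with a median of 3.13, beside rises in 14.6% of all tested mRNAs. Pyruvate kinase (PK, EVM0009831) makes pyruvate in the last step of glycolysis. It had 4779, 2498 and 3908 scaled FPKM on day 16, against 841, 1385 and 880 on day 0 (1.83 ± 0.45 SE, limma adjusted p = 0.00642). Pyruvate decarboxylase (PDC, EVM0009327) takes carbon dioxide off pyruvate and leaves acetaldehyde. It had 803, 417 and 884 scaled FPKM on day 16, against 45.8, 145 and 63.4 on day 0 (3.13 ± 0.43 SE, limma adjusted p = 0.000160). Alcohol dehydrogenase 1 (ADH1, EVM0007108) turns acetaldehyde into ethanol. It had 3116, 3743 and 3109 scaled FPKM on day 16, against 29.1, 247 and 49.0 on day 0 (5.52 ± 0.69 SE, limma adjusted p = 8.71e-05), the largest change of the list.

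The remaining members lie beside this route. Formate dehydrogenase (FDH, EVM0012176) oxidises formate to carbon dioxide. It had 491, 698 and 652 scaled FPKM on day 16, against 26.0, 133 and 26.0 on day 0 (3.72 ± 0.71 SE, limma adjusted p = 0.00133). Glycerol-3-phosphate dehydrogenase (GPDH, EVM0008918) links glycolysis with glycerol and lipid metabolism. It had 66.4, 43.0 and 55.3 scaled FPKM on day 16, against 4.63, 9.86 and 6.49 on day 0 (2.84 ± 0.37 SE, limma adjusted p = 0.000125). Day 0 replicate 2 was the highest fresh library in all 5, and without it the median change was 3.60 and all 5 were still called. On day 24, PDC had 226, 309 and 333 scaled FPKM, lower than on day 16 (day 24 over day 16, log2 fold change -1.22, limma adjusted p = 0.0482), while for the other 4 the difference between these days did not pass the test.

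The antioxidant mRNAs of the study moved apart. Catalase (CAT, EVM0011998), which breaks down hydrogen peroxide, had 45.0, 46.6 and 65.7 scaled FPKM on day 16, against 8.54, 6.45 and 11.7 on day 0 (2.45 ± 0.64 SE, limma adjusted p = 0.00864). Glutathione S-transferase 2 (GST2, EVM0000573), which couples glutathione to reactive compounds, had 17.0, 38.4 and 21.1 scaled FPKM on day 16, against 340, 798 and 152 on day 0 (-3.79 ± 0.48 SE, limma adjusted p = 0.000102). CAT thus rose and GST2 fell, with no overlap of libraries in either, and day 0 replicate 2 was the fresh library farthest from day 16 in both.

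**Figure D5:**
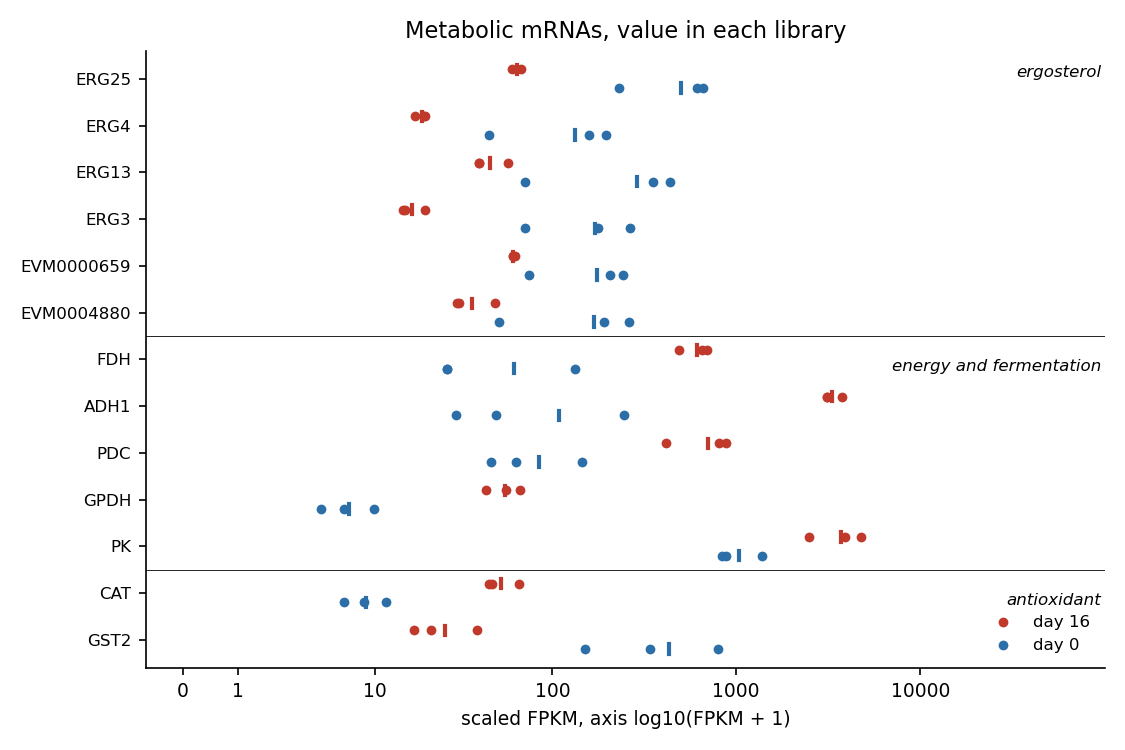
Scaled FPKM in each library on a log10(FPKM + 1) axis for the 6 ergosterol, 5 energy and fermentation and 2 antioxidant mRNAs, with red points for day 16, blue points for day 0 and a tick at each mean of 3. Red lies left of blue in all 6 ergosterol mRNAs and in GST2 and right of blue in all 5 energy and fermentation mRNAs and in CAT, without overlap, while 1 day 0 library (replicate 2) lies nearest to day 16 in the first 11.

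Day 0 replicate 2 was set apart beyond these lists in mRNAs, and less clearly in lncRNAs. It was the fresh library nearest to day 16 in 53.5% of the 3436 called mRNAs, against 22.1% for replicate 1 and 24.4% for replicate 3. In the 471 called lncRNAs it was the nearest in 46.1%, against 32.7% and 21.0%. Over all tested mRNAs, the median absolute log2 difference was 0.487 between day 0 replicates 1 and 2, 0.444 between 2 and 3, and 0.305 between 1 and 3. Over all tested lncRNAs these were alike, at 0.545, 0.527 and 0.532. Without day 0 replicate 2, 3844 mRNAs and 470 lncRNAs were called. Its part in single results was not tested beyond these values. Day 16 libraries were the more alike, with a median SD of log2 level over mRNAs of 0.189 on day 16, against 0.352 on day 0, and over lncRNAs of 0.303 on day 16, against 0.472 on day 0. The SD was smaller on day 16 in 75.2% of mRNAs and in 62.3% of lncRNAs.

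Some transcripts had also been chosen for RT-qPCR by the study. In the deposited FPKM, 3 of these mRNAs rose and 3 fell. EVM0001829 rose to 107, 101 and 109 scaled FPKM on day 16, against 16.4, 14.2 and 15.3 on day 0 (2.71 ± 0.17 SE, limma adjusted p = 2.19e-06). EVM0006666 had 148, 126 and 147 on day 16, against 37.6, 41.2 and 38.1 on day 0 (1.82 ± 0.17 SE, limma adjusted p = 1.47e-05). EVM0006175 had 389, 368 and 465 on day 16, against 89.4, 105 and 71.7 on day 0 (2.19 ± 0.23 SE, limma adjusted p = 2.66e-05). These 3 rose without overlap of libraries, and the replicates of EVM0006175 were less close together than those of EVM0001829 and EVM0006666. On the falling side, EVM0013078, whose ID the study prints with additional zeros, had 17.1, 29.8 and 21.5 on day 16, against 328, 269 and 209 on day 0 (-3.51 ± 0.40 SE, limma adjusted p = 5.21e-05). EVM0005628 had 51.6, 44.2 and 48.1 on day 16, against 275, 141 and 240 on day 0 (-2.11 ± 0.24 SE, limma adjusted p = 5.60e-05). The third that fell is ERG25, given above.

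Of the 6 lncRNAs in that set, 3 rose, 2 fell and 1 was not called. XLOC_004061 had 1640, 1478 and 1388 scaled FPKM on day 16, against 74.2, 69.1 and 72.5 on day 0 (4.36 ± 0.22 SE, limma adjusted p = 5.08e-08). XLOC_011327 had 476, 465 and 390 on day 16, against 90.6, 145 and 154 on day 0 (1.79 ± 0.25 SE, limma adjusted p = 0.000234). Both had groups far apart. XLOC_002934 had 2.13, 3.79 and 0 on day 16, against 100.2, 41.7 and 60.3 on day 0 (-4.70 ± 0.59 SE, limma adjusted p = 0.000131). XLOC_003506 had 7.44, 9.11 and 2.12 on day 16, against 63.3, 33.7 and 26.2 on day 0 (-2.61 ± 0.52 SE, limma adjusted p = 0.00207). XLOC_008354 had 1264, 887 and 1356 on day 16, against 561, 448 and 409 on day 0, and its log2 fold change of 1.29 ± 0.55 (SE) did not pass the test (limma adjusted p = 0.0643), although the groups did not overlap. It passed in a fit of only the 6 libraries (0.00471) and with quantile normalization (0.0210).

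The study also placed 2 lncRNAs in cis, close to an mRNA of the lists above. XLOC_002861, beside FDH, had 10906, 12517 and 11503 scaled FPKM on day 16, against 2424, 3354 and 1888 on day 0 (2.22 ± 0.60 SE, limma adjusted p = 0.00853), and it held 3.95% of lncRNA FPKM on day 16, against 1.09% on day 0. Its rise stood beside the rise of FDH. XLOC_002302, beside ERG13, had 164, 198 and 136 scaled FPKM on day 16, against 1732, 395 and 268 on day 0 (-1.78 ± 0.59 SE, limma adjusted p = 0.0233). The groups did not overlap, but the size rested on day 0 replicate 1, without which the change was -0.98 (adjusted p = 0.0846). The call was also lost without day 16 replicate 1 (0.0549) or replicate 3 (0.0713). The study predicted target genes for its differentially expressed lncRNAs. It placed many of these in trans by correlation over these libraries, and it names 61 of them for the key genes it discusses. Of these 61, 19 rose, 40 fell and 2 (XLOC_010105 and XLOC_013467) were not called. Their log2 changes were -5.29 to 3.58 with a median of -1.99, beside a median of -0.33 and calls in 47% of all lncRNAs. The list was drawn from lncRNAs that the study had called in these libraries, so its many calls follow from that choice. Their directions are tied to those of the mRNAs they were correlated with and are not independent evidence.

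Few transcripts were called between day 16 and day 8, and many between day 24 and day 16. A missing call does not show that levels were equal. Of the mRNAs, 0 of 10962 (0%) were called between day 16 and day 8 in limma, where 537 had an unadjusted p under 0.05, and 4 of 1002 lncRNAs (0.399%) were called, where 71 had one. The 4 lncRNAs were XLOC_000109, XLOC_000570 and XLOC_006755, higher on day 16 (0.299% of all), and XLOC_012387, lower on day 16 (0.0998%). XLOC_006755 had 8493, 8316 and 9416 scaled FPKM on day 16, against 889, 29.2 and 276 on day 8. On day 0 it had 7705, 6534 and 4531, and the difference between day 16 and day 0 did not pass the test (limma adjusted p = 0.657). XLOC_012387 was listed at 0 in all day 16 libraries, against 110, 251 and 99.2 scaled FPKM on day 8 and 131, 65.5 and 68.1 on day 0. Between day 24 and day 16, 2035 mRNAs (18.6%) were called, 1053 higher (9.61%) and 982 lower (8.96%) on day 24. Of the lncRNAs 268 (26.7%) were called, 166 higher (16.6%) and 102 lower (10.2%) on day 24. These comparisons share the libraries of day 16 with the one against day 0. They also follow the read error rates, which were lower on days 8 and 16 than on days 0 and 24. The sequencing summary of the study also gives lower mapped shares, in total and uniquely, for all libraries of days 8 and 24 than for all of day 16. Storage time thus cannot be told apart from mapping in either comparison, nor from read quality between day 24 and day 16. ADH1 had 788, 527 and 1642 scaled FPKM on day 8, between the levels of day 0 and day 16, and its log2 fold change of day 16 over day 8 was 1.91, which did not pass the test (limma adjusted p = 0.886).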

How the data were processed

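Ribosomal RNA was removed from total RNA of 12 fruiting body samples (4 days, n = 3 each) and strand-preserving libraries were sequenced. The authors used cutadapt 2.7 for trimming, FastQC 0.11.8 for read quality, HISAT2 2.1.0 for alignment and StringTie 1.3.3b for assembly and FPKM. The deposited FPKM tables hold 13103 mRNAs and 1003 lncRNAs, normalized by the authors for length and mapped reads. Reads were aligned to an assembly of the species at NCBI that the methods give by a link, and an earlier gene annotation was used to tell known from unannotated transcripts. The DESeq2 test of the methods needs counts and was not repeated.

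FPKM was divided by median-of-ratios factors per library (0.983 to 1.02 over 12 libraries) from the 10743 mRNAs above 0 in all of them, also for lncRNAs. Features that reached 1 FPKM in 3 or more libraries went into limma 3.58.1 (R 4.3.3) on log2(scaled FPKM + 1), with trend, in one fit of 4 days per class, and called at the thresholds of the study. The procedure was also run on simulated data with independent noise. These data hold no outlying library and no effect of read quality, so they do not bear on the calls reported here. Among 539 mRNAs under 0.3 FPKM, 81.1% of the ratios between day 0 replicates 1 and 2 fell on ratios of whole numbers up to 12, within a tolerance of 5e-06. The value of 1 read stays uncertain by a small whole factor, so depth is not given and no count test was run. Single values per library were compared with a two-sided exact permutation test.

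Named were all members of the ergosterol, energy and fermentation, antioxidant, RT-qPCR and cis lists and, per class, the 2 largest rises and falls by log2 change among called transcripts without overlap of libraries and with a mean of at least 10 FPKM, and the 2 largest gains and losses in FPKM with a mean of at least 100. Members of small counts outside this rule (XLOC_000109, XLOC_000570, XLOC_005403, XLOC_006639, XLOC_006755, XLOC_010105, XLOC_012387, XLOC_013467, XLOC_013964, EVM0005962, EVM0007049, EVM0009098 and EVM0011304) were named after their values were seen. The comparison, the lists and the thresholds were chosen with earlier results of these data known. Of the IDs, 0 matched the reference table, so product names are those the study gives and no sequences are shown.

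Alternatives tried were quantile normalization, lncRNA-based factors or no scaling, a filter on a mean of 5 FPKM or none, a pseudocount of 0.1, no trend, a fit without days 8 and 24, a block for the replicate number, leaving out single libraries, and other limits for abundant transcripts. Figures were drawn with matplotlib 3.10.9.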

Additional observations from a re-analysis of the deposited data

How the results depend on the processing

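Counts of calls kept within 1.5 times of the reported ones under every alternative except other limits of abundance. They were 3008 to 3751 for mRNAs (3098 to 3844 with 1 library left out), 372 to 474 for lncRNAs (388 to 470), 592 to 745 for abundant mRNAs and 99 to 123 for abundant lncRNAs with 1 library left out. With abundance set at a mean of 50 FPKM, 1236 mRNAs and 183 lncRNAs were called, and at 200 FPKM 312 and 57, since the classes tested hold more or fewer members. The gain in share of the risen mRNAs was 37.5 points with quantile normalization and 32.9 to 38.9 with 1 library left out. The difference in share of the 100 most abundant mRNAs was 9.69 to 12.3 points with 1 library left out, and that of the class medians -0.17 to -0.08, against -0.57 where means of the log2 levels replaced the medians.

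Over the 40 named features and 15 alternatives, 580 of 600 values kept direction and call, 17 lost the call, 3 gained one and 0 reversed. Beyond the losses given with each transcript, EVM0001773 was not called without a filter (adjusted p = 0.0740 in limma) or in the fit of 6 libraries (0.0710), nor EVM0001610 (0.0764 and 0.156). Whether the replicate numbers pair the samples was not settled, since so few correlations cannot decide it. Deviations of same-numbered mRNA profiles correlated at -0.06, 0.08 and 0.23 for replicates 1, 2 and 3. Those of other-numbered ones lay at -0.13 to 0.13, -0.11 to 0.0009 and -0.19 to 0.05. In lncRNAs the same-numbered ones correlated at -0.18, -0.09 and -0.02, against 0.04 to 0.14, -0.02 to 0.11 and -0.03 to 0.05. With the replicate number as a block, 3442 mRNAs and 460 lncRNAs were called, EVM0001773 lost its call (0.0650) and XLOC_008354 gained one (0.0425). The cause of these shifts was not tested. FPKM without counts limits what can be said of single low transcripts.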

Other observations

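Of the 1335 mRNAs listed at 0 in all day 16 libraries and above 0 in all day 0 libraries, 22 to 33 were above 0 in the libraries of day 8, and 416, 122 and 1286 in replicates 1, 2 and 3 of day 24. Of the 92 lncRNAs with this pattern, 3 to 9 were above 0 on day 8, and 56, 30 and 89 in replicates 1, 2 and 3 of day 24. In both classes day 24 replicate 3 thus had nearly all of these transcripts listed above 0 and replicate 2 the fewest. In the sequencing summary of the study, replicate 3 had the lowest and replicate 2 the highest mapped share of the day 24 libraries. This difference between replicates of 1 day, and the part of mapping in it, was not tested.

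Although fewer mRNAs made 50% of mRNA FPKM on day 16, the number of mRNAs over 1000 FPKM did not separate the days. It was 54, 56 and 59 on day 16, against 91, 83 and 47 on day 0. The highest value of any mRNA was 57431, 61273 and 39464 scaled FPKM in the libraries of day 16, against 22525, 21840 and 13666 in those of day 0.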
